A study of Mus musculus with 2 samples.

Results

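The interleukin-1 (IL-1) family genes described here are 10 of 19674 rows of the deposited gene table, chosen by symbol as family cytokines, their antagonist and binding protein, and their receptors: Il1a, Il1b, Il33, Il18, Il1rn, Il18bp, Il1r1, Il1rl1, Il1rap and Il1r2. Bulk RNA sequencing was done on mouse skin fibroblasts of a wild-type line labelled MDFB, given IL-17A in 1 library and vehicle in 1 library, with the same batch label. Neither the dose nor the time of treatment is on the labels, and nothing says how many cultures fed a library. IL-17A is a cytokine of T cells that acts on skin cells through its own receptor, and the series asks which skin cells respond to it in inflammatory disease. The library given IL-17A held 23559416 counts and the vehicle library 24427027.

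IL-1 family cytokines are alarm signals of barrier tissues such as skin. IL-1alpha and IL-1beta bind the receptor IL1R1, which then recruits the accessory chain IL1RAP and signals through the adaptor MYD88 and IRAK kinases to NF-kB. The same chain serves the IL-33 receptor ST2, encoded by Il1rl1, and the IL-36 receptor, encoded by Il1rl2. The pathway is held in check by the receptor antagonist encoded by Il1rn, by the decoy receptor encoded by Il1r2 and by the IL-18 binding protein encoded by Il18bp.

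Levels are given as counts, as CPM (counts scaled to a common library size by TMM normalization) and, where genes are compared, as CPM per kb of annotated exon. Ratios are IL-17A over vehicle with a 95% counting interval, and a gene whose counts in the pair of libraries sum to 50 or more, termed measured, is called where it lies 2-fold or more from equality. With 1 library per group there is no replicate check and no test, so these calls describe the libraries, and intervals and floors cover counting error only, since reads copied by PCR and not tagged by molecule are not independent. Of the 10 members, 7 were measured: 5 were called higher, against 5.19% of all 13534 measured genes, and 1 was called lower, against 3.69%. The remaining measured member, Il1r1, lay within 2-fold. Il1a reached the minimum only through its counts in the IL-17A library, and a gene that passes in that way had to differ. The same holds below for Nlrp3 and Il18rap and, through the vehicle library, for Gldc and Cldn1. The 3 members under the minimum were Il1b, Il18 and Il18bp. A minimum of 10 summed counts would add Il1b to make 6 members higher, against 6.8% of genes, and Il18 to make 2 lower, against 5.96%. Il1b and Il18 would each pass it only through their higher library, so they too had to differ, and the interval of Il18 includes the limit.

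**Figure D1:**
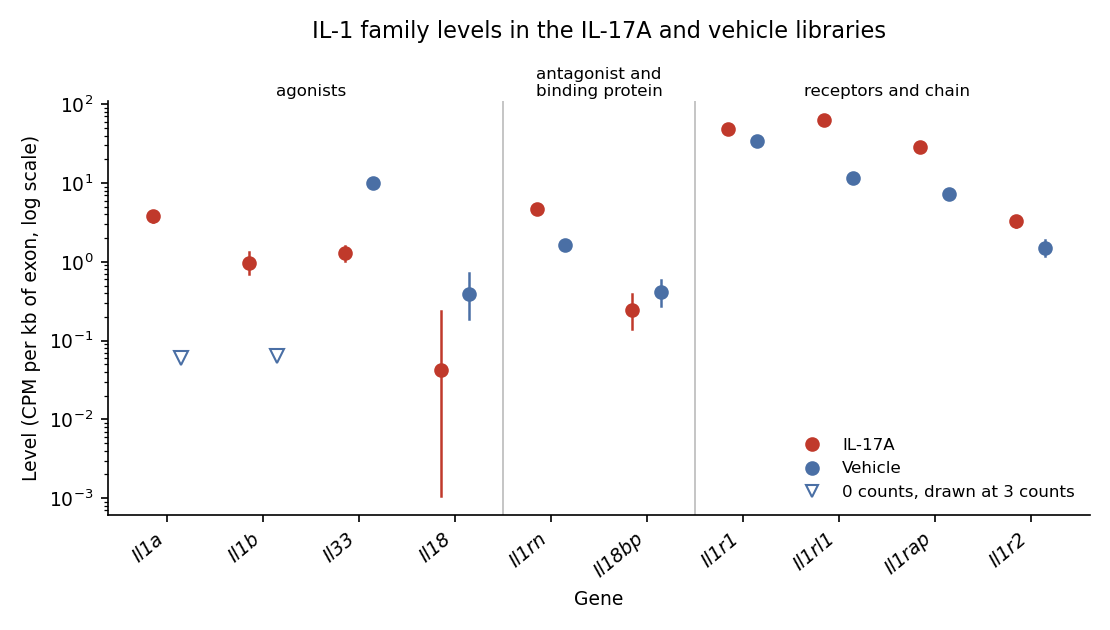
Level of each member in CPM per kb of exon on a log axis, IL-17A left of vehicle, with 95% Poisson intervals of the counts as lines. The members Il1a and Il1b had 0 vehicle counts and are drawn there at 3 counts, Il33 was lower with IL-17A, and Il1rl1, Il1r1 and Il1rap stood highest with IL-17A.

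The agonists of the IL-1 receptor were detected in the IL-17A library and had no count in the vehicle library. Il1a, which encodes IL-1alpha, a cytokine active as its precursor and released from damaged cells, had 171 counts (7.43 CPM) with IL-17A and 0 with vehicle. With vehicle set to a floor of 3 counts it was 61.9-fold higher, and the lower bound of the counting interval was 49.8-fold. It ranked 15 from the highest ratio among the 13534 measured genes. Il1b, which encodes IL-1beta, the form that needs cleavage by caspase-1, had 43 counts (1.87 CPM) with IL-17A and 0 with vehicle. With the same floor it was 15.6-fold higher, with a lower bound of 12.1-fold. With 43 counts it fell under the minimum and is not among the 5 called. The floor of 3 counts corresponds to 0.120 CPM in the vehicle library.

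Il33 differed in the opposite direction. This gene encodes IL-33, a nuclear alarmin of stromal and barrier cells, and it had 86 counts (3.74 CPM) with IL-17A and 716 (28.6 CPM) with vehicle. It was 7.66-fold (95% counting interval 6.12 to 9.70) lower with IL-17A and ranked 47 from the lowest ratio among measured genes. In CPM per kb, Il33 stood at percentile 16.4 of measured genes with IL-17A and at percentile 63.4 with vehicle. Il18, which encodes a second caspase-1 substrate, had 1 count with IL-17A and 10 with vehicle, a ratio of 0.109 (95% counting interval 0.00250 to 0.764). At that depth the size of the Il18 difference could not be fixed. In bulk samples such as these, fewer cells that express a gene and less RNA per cell cannot be told apart.

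In GENCODE vM21, an annotation of GRCm38, the assembly also known as mm10, Il1a lies on chromosome 2 at 129299610 to 129309972 and Il1b at 129364570 to 129371139, both on the minus strand and together spanning 71.5 kb. Il33 lies on chromosome 19 at 29925114 to 29960718 on the plus strand. The bases just upstream of their annotated starts are shown because these 3 cytokine genes differed in opposite directions, and those of Il1rl1 because its starts belong to different transcripts. They are taken from RefSeq's GRCm38.p6 promoter table, 250 bases before each start, 5′ to 3′ on the strand of the gene. Capitals mark matches on either strand to 3 motifs, the kappaB consensus of NF-kB, TTGCNNAA of C/EBP factors and TGANTCA of AP-1. The windows are chr2:129309973-129310222 (minus strand) for Il1a, chr2:129371140-129371389 (minus) for Il1b, and chr19:29924863-29925112 and chr19:29945540-29945789 (plus) for the upstream and the downstream start of Il33.
Il1a: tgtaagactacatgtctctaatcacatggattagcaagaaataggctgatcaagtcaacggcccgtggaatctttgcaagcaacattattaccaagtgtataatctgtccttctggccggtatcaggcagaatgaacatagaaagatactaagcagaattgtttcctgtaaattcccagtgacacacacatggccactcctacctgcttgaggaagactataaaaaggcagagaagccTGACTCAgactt
Il1b: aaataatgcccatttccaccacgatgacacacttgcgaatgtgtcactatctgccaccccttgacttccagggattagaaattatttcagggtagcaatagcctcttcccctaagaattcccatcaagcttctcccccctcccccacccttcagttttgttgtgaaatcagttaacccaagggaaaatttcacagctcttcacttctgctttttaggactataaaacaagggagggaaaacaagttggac
Il33, upstream start: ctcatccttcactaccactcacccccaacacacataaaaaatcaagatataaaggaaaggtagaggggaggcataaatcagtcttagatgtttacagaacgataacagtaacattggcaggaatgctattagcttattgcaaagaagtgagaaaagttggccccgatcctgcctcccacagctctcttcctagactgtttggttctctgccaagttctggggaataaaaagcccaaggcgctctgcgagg
Il33, downstream start: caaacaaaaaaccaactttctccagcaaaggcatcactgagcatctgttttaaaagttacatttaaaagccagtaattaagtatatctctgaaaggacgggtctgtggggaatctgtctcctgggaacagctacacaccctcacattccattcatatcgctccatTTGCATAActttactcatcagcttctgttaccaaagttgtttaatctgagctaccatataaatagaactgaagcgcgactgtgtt

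The Il1a window held the AP-1 motif, beginning at position -12 from the start. Il1b and the upstream start of Il33 held none of the 3 motifs, and the downstream start of Il33 held the C/EBP motif at position -85. Over all 15 windows of the 10 members, 1 held the kappaB consensus, an alternative start of Il1r1, 4 held the C/EBP motif and 2 the AP-1 motif. Among all 32851 windows in the table the shares were 3.90%, 9.56% and 6.75%. Some member windows are not only upstream bases. The Il18bp window, with a C/EBP match, lies wholly in annotated exon, and the Il1r2 window holds 108 exon bases. Windows of Il1rn also overlap each other, so the windows are not all separate. A match is a description of these letters and not a binding site.

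Among the inhibitors of the family, Il1rn was higher and Il18bp stayed at the edge of detection. Il1rn, the receptor antagonist that occupies IL1R1 without signalling, had 601 counts (26.1 CPM) with IL-17A and 224 (8.96 CPM) with vehicle, 2.92-fold (95% counting interval 2.50 to 3.41) higher. Il1rn lies on chromosome 2 at 24336853 to 24351494, far from Il1a and Il1b. GENCODE lists 4 protein-coding transcripts for it, with starts near 24336853 and near 24345288, and 1 of them has a coding length of only 156 bases. The gene gives secreted and intracellular antagonists, and a count per gene does not separate them. Il18bp had 17 counts with IL-17A and 31 with vehicle, a ratio of 0.596 whose interval of 0.309 to 1.11 spans 1.

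The antagonist made up a smaller part of the transcripts of this receptor's ligands with IL-17A. Il1rn took 601 of 815 counts of Il1a, Il1b and Il1rn with IL-17A, 73.7% (95% Clopper-Pearson interval 70.6 to 76.7). With vehicle it took all 224 of 224 counts, with a lower bound of 98.4%. Divided by exon length, to allow for the longer Il1rn gene model, its share was 49.9% with IL-17A and 100% with vehicle. That length joins the exons of all Il1rn transcripts, so the share with IL-17A may be too low if the cells use only some of them. With IL-17A the level of Il1rn per kb (4.72 CPM per kb) and that of Il1a (3.76) had overlapping counting intervals.

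Receptor genes had the highest counts among the members, apart from the decoy Il1r2. Il1rl1, which encodes ST2, had 9937 counts (432 CPM) with IL-17A and 2004 (80.1 CPM) with vehicle, 5.39-fold (95% counting interval 5.14 to 5.66) higher. It ranked 156 from the highest ratio among measured genes, and its level per kb stood at percentile 94.1 with IL-17A and at percentile 67.6 with vehicle. Il1rap, the shared accessory chain, had 7476 counts (325 CPM) with IL-17A and 2067 (82.6 CPM) with vehicle, 3.93-fold (95% counting interval 3.74 to 4.13) higher.

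Il1r1, the signalling receptor for IL-1alpha and IL-1beta, had 7140 counts (310.3 CPM) with IL-17A and 5492 (219.6 CPM) with vehicle. At 1.41-fold (95% counting interval 1.36 to 1.46) it was inside the 2-fold limit. Il1r2, the decoy that binds IL-1 but lacks the intracellular signalling domain, had 144 counts (6.26 CPM) with IL-17A and 72 (2.88 CPM) with vehicle, 2.17-fold higher, and its interval of 1.63 to 2.93 includes the limit. The decoy took 1.98% (95% interval 1.67 to 2.32) of Il1r1 and Il1r2 counts with IL-17A and 1.29% (1.01 to 1.63) with vehicle. Divided by exon length, since the Il1r2 gene model is shorter, its share was 6.30% with IL-17A and 4.19% with vehicle. By either measure the signalling receptor made up most of the pair in each library.

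**Figure D2:**
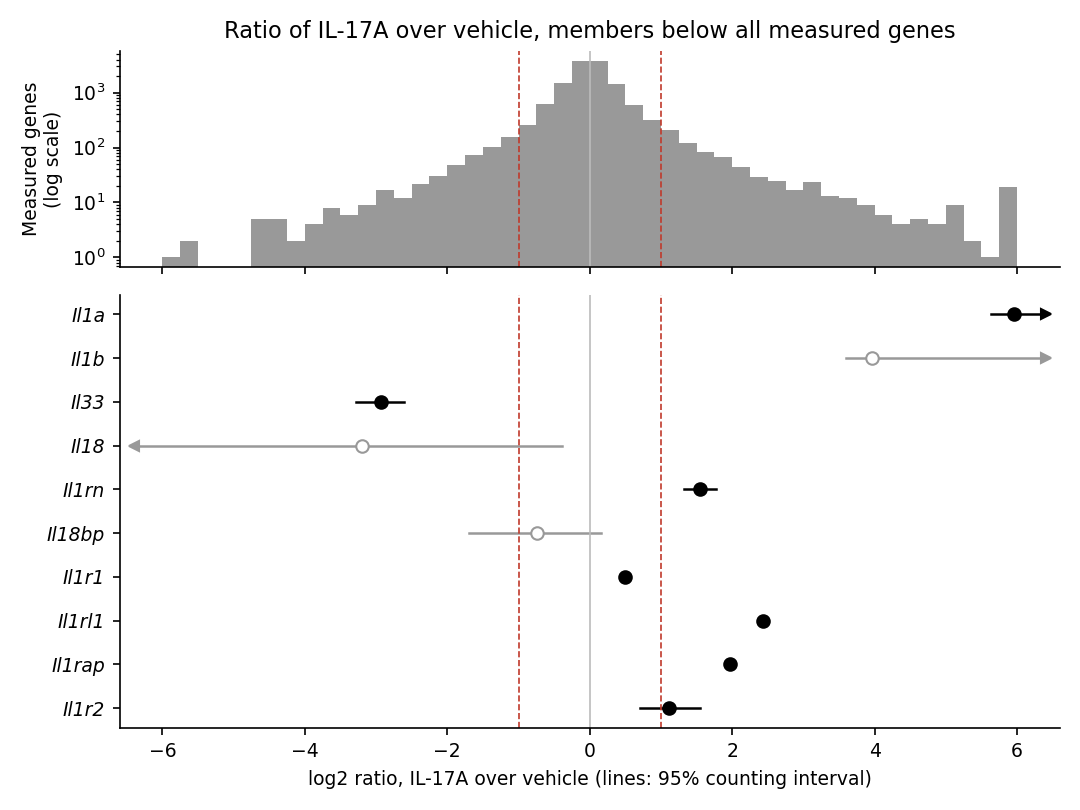
The log2 ratio of IL-17A over vehicle for all measured genes (upper panel, log axis, values beyond 6 gathered in the end bars) and for the 10 members (lower panel) with 95% counting intervals. Open grey circles are members under 50 summed counts, arrows mark intervals that run off the axis, and dashed lines mark 2-fold. Il33 stands at -2.94 and Il1rl1 at 2.43.

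Per kb of exon, the order of levels differed between the libraries. With IL-17A it ran Il1rl1 (62.6 CPM per kb), Il1r1 (48.8), Il1rap (28.6), Il1rn (4.72), Il1a (3.76), Il1r2 (3.28), Il33 (1.29), Il1b (0.980), Il18bp (0.244) and Il18 (0.0422). Counting intervals overlapped between the neighbours Il1rn and Il1a, Il1a and Il1r2, Il33 and Il1b, and Il18bp and Il18. With vehicle the order ran Il1r1 (34.5), Il1rl1 (11.6), Il33 (9.92), Il1rap (7.28), Il1rn (1.62), Il1r2 (1.51), Il18bp (0.410) and Il18 (0.388), with overlap between Il1rn and Il1r2 and between Il18bp and Il18. Il33 thus stood below Il1rn, Il1a and Il1r2 with IL-17A and above Il1rn, Il1r2 and Il1rap with vehicle. These lengths join all annotated exons of a gene, so a gene with long exons that the cells do not use is placed too low.

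The transcripts of IL-33 and of its receptor differed in opposite directions. The level of Il1rl1 per kb was 48.4 times that of Il33 with IL-17A and 1.17 times with vehicle. Il1rl1 was above Il1r1 with IL-17A and below it with vehicle, at an Il1r1 to Il1rl1 ratio of 0.778 with IL-17A and 2.97 with vehicle. Adding the IL-36 receptor gene Il1rl2, the 3 ligand-binding receptors that use Il1rap summed to 134 CPM per kb with IL-17A and 59.3 with vehicle. Il1rl1 supplied 46.8% of that sum with IL-17A and 19.6% with vehicle, while Il1r1 supplied 36.4% with IL-17A and 58.2% with vehicle. The sum was 4.68 times the level of Il1rap with IL-17A and 8.15 times with vehicle. Counts per gene pool soluble with membrane forms, so neither the sum nor its ratio to Il1rap gives the receptors able to pair with the chain. These sums and ratios were chosen after the values were seen.

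**Figure D3:**
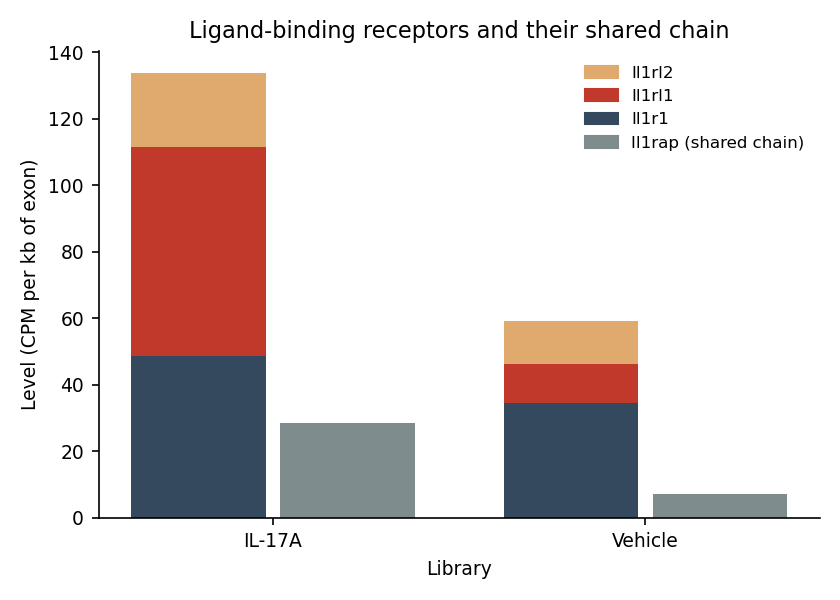
Level in CPM per kb of exon of the genes of the 3 receptors that use Il1rap, stacked, beside Il1rap itself, for the IL-17A library (left) and the vehicle library (right). Soluble and membrane forms of each gene are pooled. The stack reaches 134 with IL-17A and 59.3 with vehicle, and Il1rl1 is the layer that differs most.

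Soluble and membrane forms of ST2 could not be separated. GENCODE lists 5 protein-coding transcripts of Il1rl1, 2 with a coding length of 1701 bases for the membrane receptor and 2 of 1011 bases for the soluble form, which lacks the membrane anchor and binds IL-33 as a decoy. Counts per gene pool them, so the 5.39-fold difference may lie in either form. The 2 starts in the RefSeq promoter table differ in this respect: the annotated transcript at the upstream start, after chr1:40429320-40429569 (plus strand), codes for the short form, and the one at the downstream start, after chr1:40439379-40439628, for the long form. A second transcript of the short form starts at 40439776, just inside the downstream start, so the short form is annotated at both places. The upstream window held the C/EBP motif at position -34, in capitals, and the downstream window none of the 3 motifs.
Il1rl1, upstream start: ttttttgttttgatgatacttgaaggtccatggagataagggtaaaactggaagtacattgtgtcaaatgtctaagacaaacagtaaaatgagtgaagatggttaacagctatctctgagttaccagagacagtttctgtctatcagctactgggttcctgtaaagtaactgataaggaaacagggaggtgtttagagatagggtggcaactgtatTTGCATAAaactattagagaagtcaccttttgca
Il1rl1, downstream start: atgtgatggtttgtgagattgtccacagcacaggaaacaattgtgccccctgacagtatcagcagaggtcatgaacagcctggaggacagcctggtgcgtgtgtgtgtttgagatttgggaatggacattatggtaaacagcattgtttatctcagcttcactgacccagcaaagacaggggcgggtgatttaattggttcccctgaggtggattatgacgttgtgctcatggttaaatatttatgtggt
Il1rap likewise has 4 protein-coding transcripts, among them a soluble form, with coding lengths of 1080 to 2055 bases.

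The receptor members other than Il1rap share a locus. Il1r2, Il1r1 and Il1rl1 lie within 391 kb on chromosome 1, at 40074079 to 40465415, with Il1rl2 between them and the IL-18 receptor genes Il18r1 and Il18rap next to Il1rl1. Il1rl2 had 3511 counts with IL-17A and 2237 with vehicle, 1.71-fold (95% counting interval 1.62 to 1.80). Il18rap, the accessory chain of the IL-18 receptor, had 123 counts with IL-17A and 17 with vehicle, 7.86-fold (95% counting interval 4.72 to 13.9) higher. Its ligand-binding partner Il18r1 had 0 counts in both libraries, which allows up to 3 counts in each. The kinase gene Map4k4, the next gene upstream of Il1r2, stood at 1.93-fold with 14874 counts with IL-17A and 8366 with vehicle.

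All 5 measured receptor genes from Il1r2 to Il18rap had ratios above 1, although they differed from 1.41-fold for Il1r1 to 7.86-fold for Il18rap. Further out, the measured genes Cnot11, Rpl31 and Pdcl3 on one side and Mfsd9 and Mrps9 on the other lay between -0.31 and 0.21 on the log2 scale, while Rnf149 and Npas2 stood at 1.38 and 1.28 and Pou3f3, beyond Mfsd9, at -1.57, all named after their values were seen. Around the other members fewer genes on each side were read, and no such run was seen among them. Around the 10 members, 22 of 29 neighbouring protein-coding genes were measured, with a median log2 ratio of 0.07 against 0.00 for all measured genes, and 1 was called higher, Il18rap, and 2 lower, against 5.19% higher and 3.69% lower of all measured genes. The lower 2 were Gldc near Il33, which encodes a glycine-cleaving enzyme, with 5 counts with IL-17A and 55 with vehicle, and Cldn1 near Il1rap, which encodes a tight-junction protein, with 12 counts with IL-17A and 155 with vehicle. Cldn1 was 11.9-fold lower next to a gene that was 3.93-fold higher. Il18rap, Gldc and Cldn1 each reached the minimum only through their higher library, so each had to be called once it passed.

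**Figure D4:**
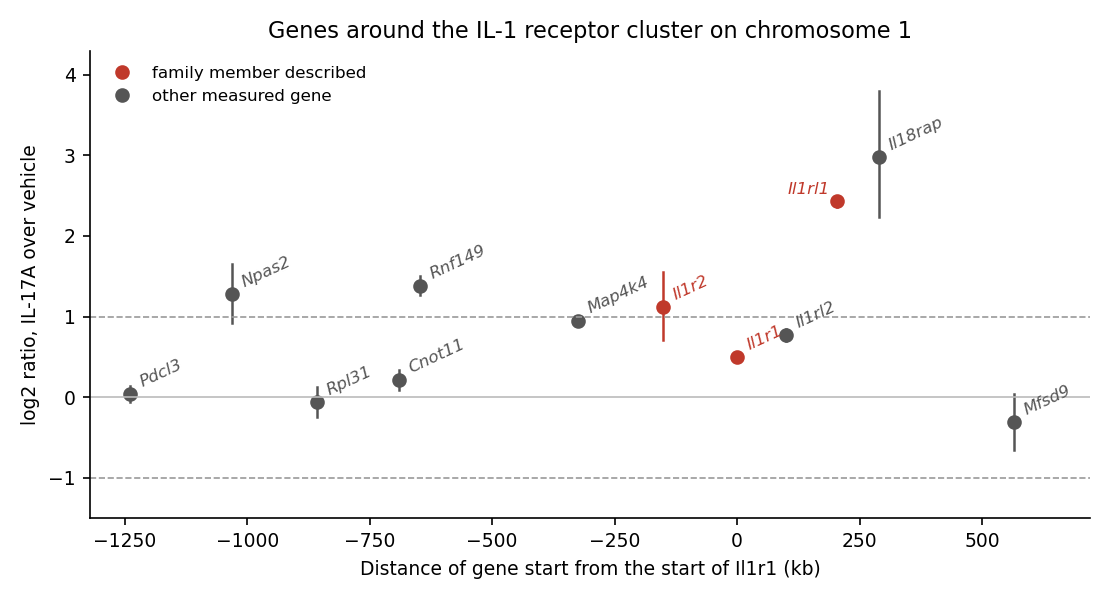
The log2 ratio of IL-17A over vehicle for measured genes around the receptor cluster on chromosome 1, by distance of the gene start from that of Il1r1 in kb, with 95% counting intervals and dashed lines at 2-fold. Il1r2, Il1r1, Il1rl2, Il1rl1 and Il18rap all lie above 0, and Il1rl1 (2.43) and Il18rap (2.98) stand highest, while the more distant Pou3f3 and Mrps9 are not drawn.

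Other genes of the pathway were read from 3 lists. Of 15 symbols on the list of other family genes, 8 were in the table and 2, Il1rl2 and Il18rap, were measured. The listed symbols Il36rn, Il36a, Il36b and Il36g are newer names of genes present as Il1f5, Il1f6, Il1f8 and Il1f9. The IL-36 cytokine genes Il1f6 and Il1f8 had 0 counts in both libraries, Il1f9 had 0 with IL-17A and 1 with vehicle, and the IL-36 antagonist gene Il1f5 had 2 with IL-17A and 1 with vehicle. The inhibitory receptor gene Sigirr had 3 counts with IL-17A and 5 with vehicle.

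Of 20 proximal signalling genes, 19 were measured, with a median log2 ratio of 0.24 against 0.00 for all measured genes. Of these 19, 4 were called higher and 0 lower, against 5.19% higher and 3.69% lower of all measured genes. Irak3, which encodes IRAK-M, a restraint on the IRAK complex, had 2520 counts with IL-17A and 408 with vehicle, 6.71-fold (95% counting interval 6.04 to 7.47) higher. The other 3 were Irak2, an IRAK kinase of the same complex, at 2.17-fold, Ikbkb, the IkB kinase subunit beta, at 2.30-fold, and the Pellino ligase Peli3 at 2.10-fold. The intervals of Irak2 (1.94 to 2.44) and Peli3 (1.72 to 2.56) include the limit. The 15 within 2-fold included the adaptor gene Myd88 at a log2 ratio of 0.46 and the kinases Irak1 and Irak4, each at 0.26.

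Of 21 genes for processing and release, 17 were measured, with a median log2 ratio of 0.18, and 2 were called higher and 0 lower, against 5.19% higher and 3.69% lower of all measured genes. Nlrp3, the sensor of the inflammasome that activates caspase-1, had 234 counts with IL-17A and 15 with vehicle, 17.0-fold (95% counting interval 10.1 to 30.8) higher. With 15 vehicle counts Nlrp3 reached the minimum only through the IL-17A library, so it had to be called once it passed. P2rx7, an ATP-gated channel that triggers that inflammasome, had 95 counts with IL-17A against 42 with vehicle, 2.46-fold higher with an interval of 1.69 to 3.62. The other 15 lay within 2-fold: Casp1 had 149 counts with IL-17A and 142 with vehicle, and Gsdmd, which encodes the pore protein for release of IL-1beta, had 1397 with IL-17A and 989 with vehicle, at a log2 ratio of 0.62. Pycard, the adaptor between NLRP3 and caspase-1, was among them and had 45 counts with IL-17A and 46 with vehicle, at a log2 ratio of 0.09.

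**Figure D5:**
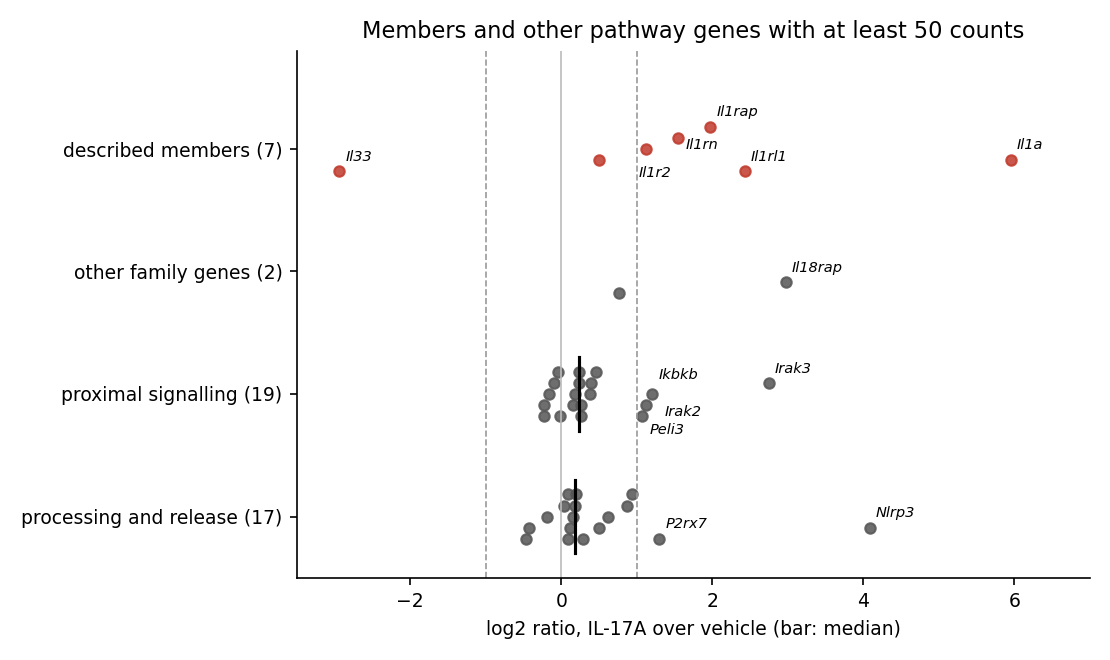
The log2 ratio of IL-17A over vehicle for measured members and for measured genes of 3 pathway lists, 1 point per gene, with dashed lines at 2-fold and, for the lists of 19 and 17 genes, a bar at the median. Genes past 2-fold are named, Il1a is drawn against the floor of 3 vehicle counts, and most genes of the signalling and processing lists lie inside the limit.

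The labelled cell type was checked against its markers. All 9 fibroblast markers were present and summed to 40937 CPM with IL-17A and 55454 with vehicle, with Col1a1 the most abundant. They differed in both directions: Dcn, which encodes the matrix proteoglycan decorin, was called higher, with 96320 counts with IL-17A and 17022 with vehicle, and Fap, which encodes fibroblast activation protein, was called lower, with 54 counts with IL-17A and 137 with vehicle. Macrophage or monocyte markers, of a cell type that also makes IL-1, were detected for 10 of 10 genes, at a summed 293 CPM with IL-17A and 211 with vehicle. Most of this was Lyz2, at 227 CPM with IL-17A and 153 with vehicle, and the other 9 summed to 65.7 CPM with IL-17A and 57.5 with vehicle. Of these 10 genes 9 were measured and none was called higher or lower. Cd14 (1.95-fold) and Itgam (1.94-fold) stood just under the limit, while Cd68 (0.676) and Adgre1 (0.952) had ratios under 1. The part of such cells in Il1a, Il1b, Il1rn or Nlrp3 was not tested. Marker lists of neutrophils, keratinocytes, mast cells, endothelial cells and T cells summed to at most 5.82 CPM with IL-17A and 4.88 with vehicle. Their most abundant genes were S100a8, Krt10, Kit, Cdh5 and Cd4. Of these lists, the mast cell genes had 5 of 6 at 0 in both libraries, among them Cpa3 and Ms4a2, and 3 of 4 T cell genes were at 0.

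Some member counts carry an annotation limit. Exons of Il18bp share 80 bases with Numa1 on the opposite strand, a gene with 4450 counts with IL-17A and 4146 with vehicle, so the few Il18bp counts are uncertain without a stated strand setting. Il1a shares 222 exon bases with the opposite-strand transcript Gm14023, which had 3 counts with IL-17A and 9 with vehicle and so differed from Il1a. Il1b shares 25 bases with Il1bos, which had 0 counts in both libraries. Il1rap shares 552 of its 11360 exon bases with the opposite-strand transcript Gm20319. No unique row under that symbol was in the gene table, so its counts could not be set beside those of Il1rap.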

How the data were processed

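RNA from IL-17A-treated and from vehicle-treated fibroblasts was sequenced as 1 polyadenylated stranded library each, per the labels' protocols. The table deposited by the authors holds raw counts by gene symbol, with no normalization; STAR, featureCounts and mm10 are named per the submitters' processing notes, while for versions, annotation and strand setting the status is: not given in the sources used here. Library sizes were scaled by TMM in edgeR 4.0.16 (R 4.3.3), and ratios, their exact 95% Clopper-Pearson intervals and exact Poisson intervals of levels were computed with scipy 1.17.1. A library at 0 was set to a floor of 3 counts where the other held more. No edgeR or DESeq2 test was possible with 1 library per group. The calculation was tested on simulated Poisson counts at the observed depths. These hold no spread between cultures, so that run checks the arithmetic and not the calls. Exon lengths and positions came from GENCODE vM21, where 98.1% of row symbols were found; promoter sequences came from RefSeq, where all 10 members matched.

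Text names every member, each list gene past 2-fold with 50 counts or otherwise the 2 of highest absolute ratio, neighbours past 2-fold, and the most abundant marker per list; others were picked with their values in view. The members and lists were chosen with earlier results of these data known. No gene was sought by likeness of pattern, since 2 libraries give 1 ratio per gene.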

Additional observations from a re-analysis of the deposited data

How the results depend on the processing

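The 10 members' log2 ratios were recomputed under total-count, upper-quartile and DESeq2 (1.42.0) scaling and with a prior count of 2; of 40 values none turned sign and 39 stayed inside the counting interval, the exception being Il1r1 at 0.43 under total-count scaling, against 0.50. With 2 libraries each scaling moved all log2 ratios alike, by at most 0.07, so scaling could turn no member's sign. Il1a and Il1b had no upper interval limit to leave. Under each of these scalings 5 members were called higher and 1 lower. A minimum of 10 summed counts, or none, gave 6 members higher and 2 lower, adding Il1b and Il18, and a 3-fold limit left 3 higher: these follow from which genes each setting admits. A minimum of 200 left 4 members higher, without Il1a, and 507 of all genes higher. Over all genes the counts were 1090 higher and 955 lower with a minimum of 10, 1347 higher and 1148 lower without a minimum, 1364 higher and 1117 lower at 1.5-fold, and 340 higher and 219 lower at 3-fold, and a minimum of 200 left 275 lower. At 1.5-fold the other family genes had 2 of 2 measured higher and the processing genes 5 of 17, against 1364 of all 13534 measured genes. The 340 higher at 3-fold are of the same 13534. Per kb of exon, the share of Il1rn was 49.9% with IL-17A, that of Il1r2 was 6.30% with IL-17A and 4.19% with vehicle, and that of Il18bp was 51.4% with vehicle, since Il1rn and Il18bp have longer and Il1r2 a shorter exon total than their partners. No paired analysis was possible because each group has 1 library. No setting can replace the missing replicates, and depth limits Il18, Il18bp and Il1b most.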
